A study of Mus musculus with 23 samples.

Results

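The megakaryocyte-erythroid transcription factors are 10 genes, Gata1, Gata2, Zfpm1, Nfe2, Fli1, Runx1, Tal1, Klf1, Gfi1b and Lmo2, that were picked by symbol from the 24454 genes of the deposited count table. All 10 were found, and all 10 passed the filter on low counts with either library protocol. Their RNA was followed in stem and progenitor cells sorted from the marrow of C57BL/6 mice. V617F mice carried SclCre;V617F, in which Cre activates the V617F form of the kinase JAK2, and the comparison mice are labelled WT. The Cre driver is named for Scl, an older name of Tal1, so that 1 of the 10 genes shares its name with the driver. Both genotypes received tamoxifen for 5 days and were sampled 12 weeks later. The labels do not say whether WT mice carried Cre, give no age, and do not state that each library came from a different mouse, so that p-values measure the spread between these libraries.

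There were 8 groups. CD41-plus HSC and CD41-minus HSC are the fractions, with and without the surface integrin CD41, of marrow cells that lack lineage markers and CD48 and carry Kit, Sca-1 and CD150. Their libraries were made with SMART-Seq v4. Libraries of megakaryocyte progenitors (MkP; no lineage markers or Sca-1, with Kit, CD150 and CD41) and of long-term stem cells (LT-HSC; the gate above, not split by CD41) were made with SMART-Seq v2. Each group had 3 libraries, except WT CD41-plus HSC with 2. Protocol and population pair cannot be told apart, so no v2 library was compared with a v4 library.

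GATA1 and GATA2 are zinc-finger factors that bind the same short DNA word. GATA2 acts in stem and early progenitor cells and in mast cells, and GATA1 takes its place on many of the same sites as megakaryocytes, erythroid cells, mast cells and eosinophils form. FOG1, the protein of Zfpm1, binds GATA1 and is needed for both the platelet and the red cell line. TAL1, a basic helix-loop-helix factor, and the bridging protein LMO2 join GATA factors in 1 DNA-binding complex. GFI1B is a repressor that recruits histone demethylase and deacetylase to GATA1 target genes. NFE2, a leucine-zipper factor, drives the last steps of platelet release. FLI1, an ETS factor, and RUNX1 act on the megakaryocyte side, whereas KLF1 drives red cell genes and opposes FLI1.

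In the genome build mm10 (RefSeq GRCm38.p6) the GATA genes lie at chrX:7959260-7976663 (Gata1) and chr6:88193891-88207032 (Gata2). Zfpm1 lies at chr8:122281856-122337862 and Klf1 at chr8:84901982-84905291. Gfi1b lies at chr2:28609450-28621982 and Lmo2 at chr2:103957903-103981878. Tal1 lies at chr4:115056426-115071755, and Fli1 at chr9:32422204-32543432. Nfe2 lies at chr15:103248212-103258403, and Runx1, the longest of the 10, at chr16:92601466-92826074. The deposited gene length ran between 1534 bases (Klf1) and 7378 bases (Runx1).

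Total counts, in units of 1000000, ran from 17.6 to 49.2 per library, with a median of 22.2. With v2, totals were 17.6 to 22 in V617F LT-HSC and 34.6 to 49.2 in WT LT-HSC, and 22.1 to 33.8 in V617F MkP and 30.9 to 41.1 in WT MkP. In the same libraries, 14634 to 15167 genes were detected in V617F MkP and 11483 to 12463 in WT MkP, and 15298 to 15697 in V617F LT-HSC and 12876 to 13805 in WT LT-HSC. Depth and genes detected thus went with genotype in v2, and their part in the V617F effects was not tested. The sort marker Itga2b, which encodes CD41, followed the gates, at 697 ± 74.5 CPM in V617F CD41-plus HSC and 115.3 ± 20.0 in V617F CD41-minus HSC. Of 18 libraries labelled female, 13 held both Xist (67.5 to 566.1 CPM) and the Y-linked Ddx3y (13.2 to 61.7 CPM), namely all 11 WT libraries and 2 of 3 V617F MkP libraries. The other libraries labelled female had at most 0.27 CPM of Ddx3y. V617F LT-HSC are labelled male and WT LT-HSC female. Gata1 is the X-linked gene of the 10, and the part of sex in its values was not tested in any population. Leaving out the mouse labelled male cannot test it, since all 11 WT libraries held both Xist and Ddx3y. LT-HSC library WT 30 stood apart from WT 31 and WT 32 in several of the factors, and results that rest on it are given with and without it.

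Levels are CPM, the counts per 1000000 of the library total after TMM scaling. For comparison between genes they were also divided by gene length, as CPM per 1000 bases. On that per-length scale Lmo2 was the highest of the 10 in every group but WT LT-HSC. It had 471 ± 56.3 in V617F and 573 ± 8.83 in WT CD41-plus HSC, and 379 ± 22.4 in V617F and 343 ± 21.6 in WT MkP. Nfe2 was first by mean in WT LT-HSC, with 650 ± 287, where it overlapped with Lmo2 at 556 ± 161. That order rests on WT 30, with 947.8 for Nfe2 and 399 for Lmo2. In WT 31 and WT 32 Lmo2 (720.1 and 547.9) lay above Nfe2 (626.2 and 375.3). The lowest place went to Klf1 in CD41-minus HSC of either genotype (2.41 ± 0.56 in V617F and 9.83 ± 5.93 in WT) and to Zfpm1 in LT-HSC and MkP. In V617F LT-HSC Zfpm1 had 5.21 ± 0.59 and in WT LT-HSC 2.77 ± 0.84. Nfe2, the platelet factor, was among the highest 3 in all 8 groups. Many neighbours in the middle could not be set apart: in V617F LT-HSC, Gfi1b, Gata2, Fli1, Gata1 and Tal1 each overlapped with the next, and in WT LT-HSC all from Gfi1b down to Runx1 did.

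**Figure D1:**
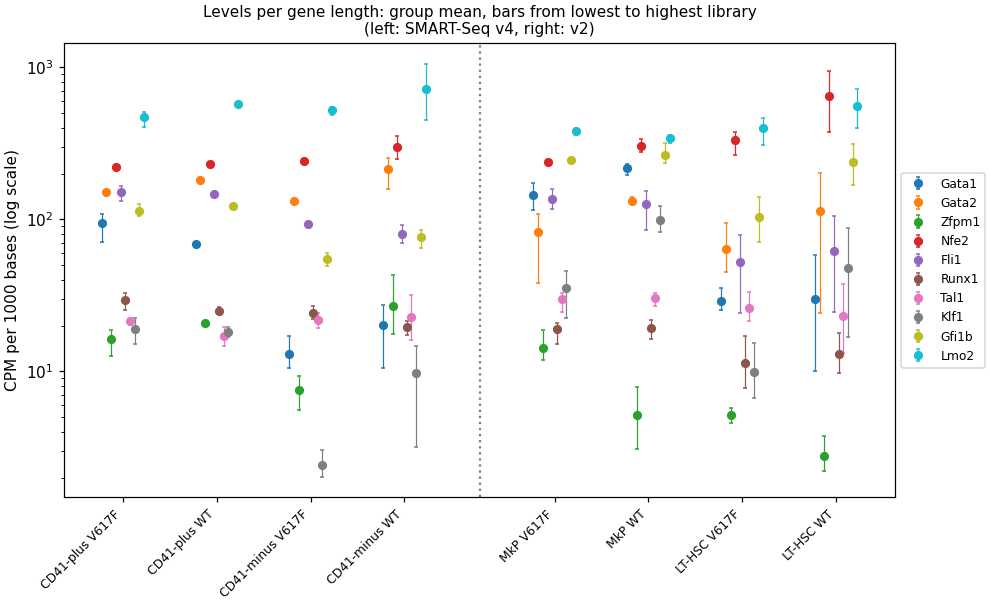
Level of each factor per length (CPM per 1000 bases, log scale) in the 8 groups. Points are group means and bars run from the lowest to the highest library; SMART-Seq v4 groups stand left of the dotted line and v2 groups right of it. Lmo2 and Nfe2 stay near the top, and Gata1 is higher in CD41-plus HSC than in CD41-minus HSC and higher in MkP than in LT-HSC.

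V617F was set against WT in each population, and CD41-minus HSC, the fraction that lacks the megakaryocyte integrin, was the one in which any of the factors passed. There 4 of the 10 fell and none rose past an adjusted p of 0.05 in edgeR's quasi-likelihood test: Zfpm1, Klf1, Gata2 and Gfi1b. Of all genes tested in that contrast 13.4% passed, 5.48% higher and 7.94% lower. The median log2 fold change of the 10 was -0.48, beside -0.01 over all genes, and 2 of the 10 were positive.

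The partner of GATA1, Zfpm1, had 31.7, 25.4 and 19.0 CPM in the V617F libraries, against 68.9, 145.6 and 59.6 CPM in the WT libraries. The groups did not overlap, and WT 3 lay above the other two WT libraries. The log2 fold change was -1.85 ± 0.30 (SE), a 3.6-fold lower level (adjusted p = 0.00617). Under every alternative tried, leaving out each library included, Zfpm1 had an adjusted p of 0.0335 or less, and its log2 fold change lay between -2.08 and -1.34.

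Klf1, the red cell activator, had 3.12, 3.28 and 4.70 CPM in V617F, against 4.90, 17.9 and 22.4 CPM in WT. The WT 1 library lay just above the highest V617F library, and the other two WT libraries far above it. The difference was 4.07-fold (log2 -2.02 ± 0.42, adjusted p = 0.0159). It rests on 73 to 133 counts per V617F library and 92 to 445 per WT library.

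Gata2, the stem cell GATA factor, had 412, 441 and 438 CPM in V617F, against 764, 816 and 514 CPM in WT, which was 1.62-fold lower (log2 -0.70 ± 0.16, adjusted p = 0.0223). The repressor Gfi1b had 89.7, 109.8 and 99.4 CPM in V617F, against 118.9, 154.5 and 144.1 CPM in WT, a 1.40-fold difference (log2 -0.48 ± 0.13, adjusted p = 0.0337). Neither pair of groups overlapped. For Gata2 the V617F libraries lay within a narrow band and the WT libraries were spread out.

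These calls depend on single libraries. The count of 4 became 1, Zfpm1 alone, without WT 3, V617F 1 or V617F 2, 2 (Klf1 added) without V617F 3, 3 (all but Gfi1b) without CD41-plus WT 3 or WT 4, 5 (Gata1 added) without WT 1 and 6 (Nfe2 and Runx1 added) without WT 4. It was also 1 when both libraries of the mouse labelled male were left out and when only the 2 groups compared were fitted. Over these alternatives the adjusted p-value reached 0.0702 for Klf1, 0.102 for Gata2 and 0.112 for Gfi1b, and no sign changed.

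Markers of other cell types also differed in this fraction. Granulocyte markers summed to 166 to 201 CPM in V617F and 114 to 586 CPM in WT, where WT 1 was the highest. Of 8 tested monocyte markers 2 were higher and 4 lower in V617F (sums of 48.4 to 59.7 CPM in V617F and 36.8 to 39.9 CPM in WT). Of 8 tested endothelial markers 4 were lower and none higher (553 to 726 CPM in V617F and 651 to 887 CPM in WT), and the defining one, Cdh5, was at most 0.378 CPM in any library. Tie1, Esam and Tek were the highest of them, reaching 424, 280 and 137 CPM with v4. Plvap, Flt4 and Cldn5 reached at most 4.17, 4.54 and 6.06 CPM with v4. WT 1 also had the highest sum of sort markers, 4364 CPM, against 2478 and 2404 CPM in WT 3 and WT 4. The part of these in the calls was not tested, and the values without WT 1 are those above.

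The remaining 6 did not pass. Gata1 had 21.7, 19.9 and 32.5 CPM in V617F and 19.9, 51.9 and 43.3 CPM in WT CD41-minus HSC, with overlap through WT 1 (log2 -0.63 ± 0.29, adjusted p = 0.139). Runx1 had 176.2, 162.1 and 198.9 CPM in V617F and 143.3, 128.4 and 158.9 CPM in WT. These groups did not overlap, but the adjusted p was 0.0997 (log2 0.32 ± 0.13). Fli1 gave a log2 fold change of 0.22, Nfe2 -0.29, Lmo2 -0.47 and Tal1 -0.06, with adjusted p-values of 0.23, 0.157, 0.178 and 0.841. Lmo2 varied more within WT (860 to 2003 CPM) than between the genotypes.

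In the other three populations none of the 10 passed between the genotypes in edgeR's quasi-likelihood test. In CD41-plus HSC 1.16% of all genes passed, 0.221% higher and 0.94% lower, and none of the 10 had an unadjusted p under 0.05. Here and below, the share of all genes with an unadjusted p under 0.05 was not counted. DESeq2 and limma-voom called none of the 10 in CD41-plus HSC either. Gata1 had 205.5, 134.2 and 201.9 CPM in V617F and 130.3 and 132.1 CPM in WT (log2 0.46 ± 0.32, adjusted p = 0.674). All 3 V617F libraries lay above both WT libraries, the one labelled male by little, and without the mouse labelled male the log2 value was 0.64 (adjusted p = 0.562). With both Xist and Ddx3y in the WT libraries, that fit could not test the part of sex. Zfpm1 had 63.8, 42.7 and 58.3 CPM in V617F and 72.2 and 69.4 CPM in WT (log2 -0.37 ± 0.33, adjusted p = 0.755). Klf1 was level, at 29.0 ± 5.63 CPM in V617F (n = 3) and 27.9 ± 2.78 CPM in WT (n = 2), with a log2 difference of 0.05 ± 0.43. Tal1 was higher and Gata2, Nfe2 and Lmo2 were lower in all 3 V617F libraries than in both WT libraries, with log2 values of 0.32, -0.26, -0.06 and -0.28 and adjusted p-values of 0.654 to 0.931. In this and every other contrast, the share of all genes whose groups do not overlap was not counted. Separation of so few libraries is therefore a description only.

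The change of the V617F effect from CD41-minus to CD41-plus HSC was tested by an interaction term. It was positive for 8 of the 10, and the 3 with an unadjusted p under 0.05 were Klf1 (log2 2.08 ± 0.60), Zfpm1 (1.48 ± 0.45) and Gata1 (1.09 ± 0.44). All 3 had an adjusted p of 0.566 in edgeR's test, in which 0% of all genes passed; limma-voom called none of the 10 and DESeq2 none of the 10 and 6 of all genes. So a drop in CD41-minus HSC without one in CD41-plus HSC was not shown to be a difference between the fractions. Without CD41-minus WT 4, whose Klf1 was the highest and whose Zfpm1 the lowest of the WT libraries, 2 of the 10 passed, Zfpm1 (log2 1.71, adjusted p = 0.0221) and Gata2 (0.61, adjusted p = 0.0333). How many of all genes passed in that fit is not given here.

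In LT-HSC 0.063% of all genes passed between the genotypes, 0.028% higher and 0.035% lower. Klf1 had 11.6, 23.4 and 10.2 CPM in V617F, against 133.9, 60.7 and 25.9 CPM in WT (log2 -2.28 ± 0.57, adjusted p = 0.16). Gfi1b had 185.4, 254.0 and 130.2 CPM in V617F, against 572.8, 425.8 and 305.8 CPM in WT (log2 -1.20 ± 0.32, adjusted p = 0.172). In both genes every V617F library lay below every WT library. Nfe2 had 989, 1054 and 741 CPM in V617F and 2647, 1749 and 1048 CPM in WT (log2 -0.97, adjusted p = 0.244), with a slight overlap. These were the 3 with an unadjusted p under 0.05. While limma-voom called none of the 10, DESeq2 called Klf1 and Gfi1b (adjusted p = 0.00501 and 0.0176). The share of all genes that DESeq2 called in LT-HSC is not given here.

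The WT 30 library of LT-HSC had the highest Klf1, Gfi1b and Nfe2 of the LT-HSC libraries, and also the highest Gata1 (111.0 CPM, against 19.2 and 40.6 in WT 31 and WT 32) and the lowest Gata2 (78.4 CPM, against 654.1 and 379.1). Markers of other lines were higher in it too. Lymphoid markers summed to 1124 CPM, against 156.3 and 204.3 CPM in WT 31 and WT 32, and monocyte markers to 226.2 CPM, against 62.8 and 79.3 CPM. Mast cell, basophil and eosinophil markers summed to 66.1 CPM, against 14.7 and 36.3 CPM, red cell genes to 7716 CPM, against 2596 and 4050 CPM, and granulocyte markers to 6910 CPM, against 3776 and 4844 CPM. Without it the V617F effect in LT-HSC was -1.499 for Klf1 and -0.93 for Gfi1b on the log2 scale (adjusted p = 0.184 and 0.166), and that of Gata1 was 0.90 in place of -0.04 (adjusted p = 0.226). For Nfe2 the effect was -0.57 in place of -0.97 (adjusted p = 0.275 in edgeR's test). Granulocyte markers summed to 476 to 1185 CPM in V617F LT-HSC and to 3776 to 6910 CPM in WT LT-HSC, and their part in these values was not tested.

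In MkP 1.75% of all genes passed, 1.62% higher and 0.126% lower. Zfpm1 had 40.1, 63.8 and 40.6 CPM in V617F, against 10.4, 26.8 and 15.02 CPM in WT (log2 1.47 ± 0.53, adjusted p = 0.181). Klf1 had 34.3, 70.4 and 59.1 CPM in V617F, against 188.0, 138.5 and 126.7 CPM in WT (log2 -1.47 ± 0.55, adjusted p = 0.201). Neither gene's groups overlapped, and these were the 2 of the 10 with an unadjusted p under 0.05. DESeq2 called Zfpm1 alone (adjusted p = 0.0376) and limma-voom none, and the share of all genes that each called in MkP is not given here. Gata1 had 274.6, 328.4 and 218.0 CPM in V617F, against 442.3, 372.6 and 426.9 CPM in WT, with no overlap and an adjusted p of 0.692 (log2 -0.60 ± 0.49). Gata2 (326.7, 351.3 and 124.0 CPM in V617F, against 454.7, 411.7 and 411.7 CPM in WT) and Nfe2 (665.7, 642.2 and 688.5 CPM in V617F, against 849.9, 941.8 and 769.0 CPM in WT) were also lower in V617F without overlap, with adjusted p-values of 0.737 and 0.741. Such separation was not counted over all genes. Fli1, Runx1, Tal1, Gfi1b and Lmo2 lay within 0.14 of 0 on the log2 scale, with overlapping groups.

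Beside these values, 14 markers of mast cells, basophils and eosinophils, lines that also use GATA factors, summed to 64.8 to 142.2 CPM in V617F MkP and to 263.6 to 353.8 CPM in WT MkP. The mast cell proteases Mcpt4 and Tpsb2 were at 0 in 22 of 23 libraries and Cma1 in 20. Others of the list were present: Cpa3 and Hdc were at 0 in no library and reached 79.2 and 114 CPM. Prss34, at 0 in 14 libraries, reached 136 CPM. Granulocyte markers summed to 1134 to 2581 CPM in V617F MkP and 8365 to 12320 CPM in WT MkP. The part of such cells in the MkP values was not tested. In bulk RNA of sorted cells, fewer cells of a type and less RNA per cell cannot be told apart. None of the 10 passed edgeR's interaction test of the V617F effect in MkP against that in LT-HSC, where 0.455% of all genes passed, 0.427% higher and 0.028% lower. Gfi1b was the one with an unadjusted p under 0.05 (log2 1.09 ± 0.45, adjusted p = 0.497), and DESeq2 and limma-voom called none of the 10.

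**Figure D2:**
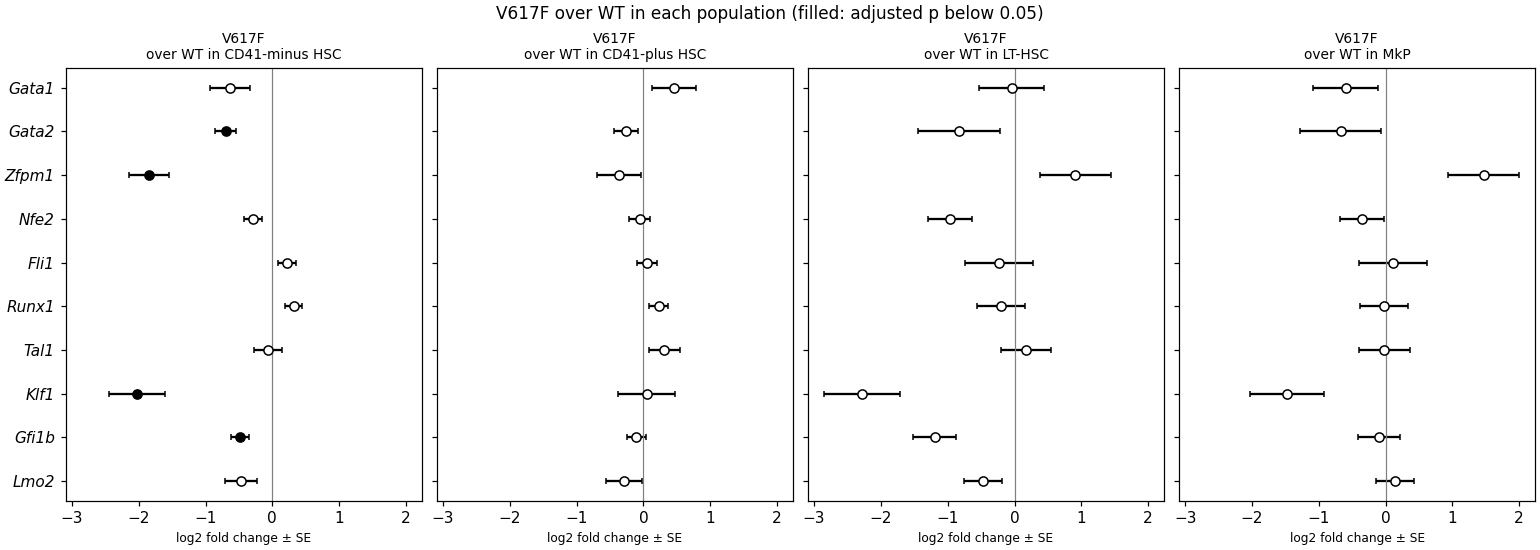
Log2 fold change of V617F over WT with its SE for each factor (rows) in the 4 populations (panels), from edgeR's quasi-likelihood fit of 3 libraries a group (2 in WT CD41-plus HSC). Filled points passed an adjusted p of 0.05: Gata2, Zfpm1, Klf1 and Gfi1b in CD41-minus HSC, all lower. Zfpm1 lies left of 0 in both CD41 fractions and right of 0 in LT-HSC and MkP.

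The step from CD41-minus to CD41-plus HSC was marked by Gata1 in both genotypes. In V617F 5 of the 10 rose and none fell, namely Gata1, Klf1, Gfi1b, Fli1 and Zfpm1. Of all genes tested 34.3% passed, 16.4% higher and 17.9% lower. In WT 3 of the 10 rose and none fell, Gata1, Fli1 and Gfi1b, where 34% of all genes passed, 15.7% higher and 18.2% lower.

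Gata1 had 205.5, 134.2 and 201.9 CPM in V617F CD41-plus HSC, against 21.7, 19.9 and 32.5 CPM in V617F CD41-minus HSC, a 7.3-fold rise (log2 2.87 ± 0.31, adjusted p = 3.71e-05). In WT it had 130.3 and 132.1 CPM in CD41-plus HSC, against 19.9, 51.9 and 43.3 CPM in CD41-minus HSC, a 3.42-fold rise (log2 1.77 ± 0.32, adjusted p = 0.00204). Every CD41-plus library lay above every CD41-minus library.

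Klf1 had 29.3, 23.2 and 34.4 CPM in V617F CD41-plus HSC, against 3.12, 3.28 and 4.70 CPM in V617F CD41-minus HSC (log2 2.96 ± 0.42, adjusted p = 2.43e-04). In WT it had 29.9 and 26.0 CPM in CD41-plus HSC, against 4.90, 17.9 and 22.4 CPM in CD41-minus HSC (log2 0.89 ± 0.43, adjusted p = 0.122). The CD41-plus levels of the genotypes overlapped, and the CD41-minus levels did not.

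Gfi1b had 192.5, 196.5 and 230.0 CPM in V617F CD41-plus HSC, against 89.7, 109.8 and 99.4 CPM in V617F CD41-minus HSC (log2 1.05 ± 0.13, adjusted p = 8.29e-05). In WT it had 229.2 and 215.1 CPM in CD41-plus HSC, against 118.9, 154.5 and 144.1 CPM in CD41-minus HSC (log2 0.67 ± 0.14, adjusted p = 0.00436). The ETS factor Fli1 had 495, 421 and 525 CPM in V617F CD41-plus HSC, against 284, 302 and 301 CPM in V617F CD41-minus HSC (log2 0.70 ± 0.13, adjusted p = 0.00153). In WT it had 450 and 477 CPM in CD41-plus HSC, against 247, 222 and 291 CPM in CD41-minus HSC (log2 0.87 ± 0.14, adjusted p = 0.00124). Both genes rose in each genotype, with no overlap.

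Zfpm1 had 63.8, 42.7 and 58.3 CPM in V617F CD41-plus HSC and 31.7, 25.4 and 19.0 CPM in V617F CD41-minus HSC (log2 1.11 ± 0.30, adjusted p = 0.0122). In WT the fractions overlapped, at 72.2 and 69.4 CPM in CD41-plus and 68.9, 145.6 and 59.6 CPM in CD41-minus HSC (log2 -0.37 ± 0.33, adjusted p = 0.403). The V617F rise was lost without CD41-minus V617F 3 (log2 0.94, adjusted p = 0.0554). Equal numbers pair the V617F libraries of the fractions, and with the number as a block 6 of the 10 passed in V617F, Runx1 being added (log2 0.27, adjusted p = 0.0441, against 0.117 without the block). Gata2, Nfe2, Tal1 and Lmo2 did not pass in either genotype, with log2 values between -0.41 and 0.19. Without CD41-minus WT 4, 8 of the 10 passed in WT: Runx1 and Klf1 were added among those higher, and Gata2, Nfe2 and Tal1 were lower. For that fit and the fit with the block, the share of all genes that passed is not given here. The counts of 8 and 6 are thus not set against a background.

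The same step was read between MkP and LT-HSC, whose gates differ in Sca-1 and CD48 as well as CD41. In WT 1 of the 10 passed, where 8.9% of all genes did, 2.32% higher and 6.58% lower. Gata1 had 442.3, 372.6 and 426.9 CPM in WT MkP, against 111.0, 19.2 and 40.6 CPM in WT LT-HSC, a 7.28-fold rise (log2 2.86 ± 0.52, adjusted p = 0.00681). The median over all genes in this contrast was -0.20 on the log2 scale. Without LT-HSC WT 30 the log2 value of Gata1 was 3.79 (adjusted p = 4.34e-04), and Klf1 (1.82, adjusted p = 0.043) and Lmo2 (-0.88, adjusted p = 0.0242) passed too. A fit of the 2 WT groups alone lost Gata1 (adjusted p = 0.11).

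In V617F none of the 10 passed in edgeR's test, where 1.09% of all genes did, 0.378% higher and 0.714% lower, although 5 had an unadjusted p under 0.05. Gata1 had 274.6, 328.4 and 218.0 CPM in V617F MkP, against 49.9, 67.7 and 48.0 CPM in V617F LT-HSC (log2 2.31 ± 0.51, adjusted p = 0.0549). The groups were far apart, and the other 4 were Gfi1b (log2 1.24), Klf1 (1.86), Zfpm1 (1.45) and Fli1 (1.38), with adjusted p-values of 0.129 to 0.326 and no overlap. DESeq2 called Gata1 and Gfi1b, limma-voom Gata1, and a fit of the 2 V617F groups alone all 5. Shares of all genes that passed in these fits are not given here. Gata1 also passed without LT-HSC WT 30 (adjusted p = 0.00229) or WT 31 (0.0165), libraries that enter this contrast only through the shared estimate of spread.

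The platelet factor Nfe2 and the bridging protein Lmo2 had lower values in MkP than in LT-HSC of WT. Nfe2 had 850, 942 and 769 CPM in WT MkP, against 2647, 1749 and 1048 CPM in WT LT-HSC (log2 -1.09 ± 0.33, adjusted p = 0.0597). Without LT-HSC WT 30 the log2 value of Nfe2 was -0.70 (adjusted p = 0.0828 in edgeR's test). Lmo2 had 606, 684 and 666 CPM in WT MkP, against 758, 1368 and 1041 CPM in WT LT-HSC (log2 -0.70 ± 0.29, adjusted p = 0.139). Neither pair of groups overlapped, and neither gene passed.

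**Figure D3:**
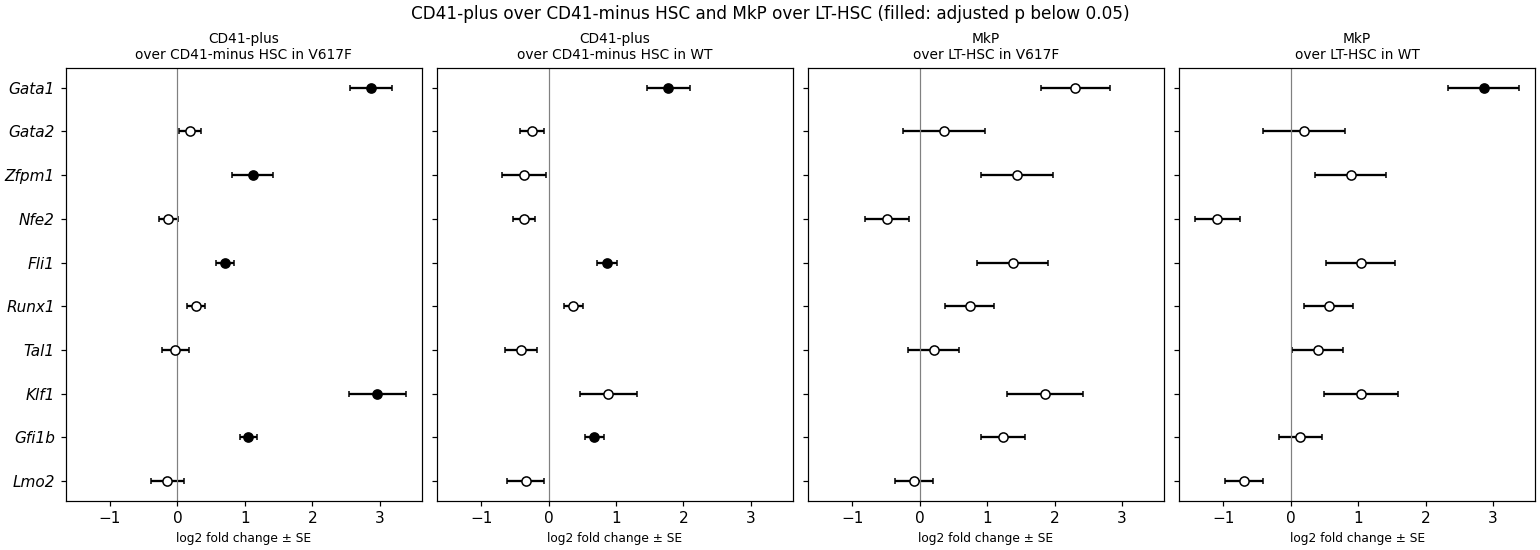
Log2 fold change with its SE for each factor (rows) of CD41-plus over CD41-minus HSC and of MkP over LT-HSC in each genotype (panels). Filled points passed an adjusted p of 0.05. Gata1 lies furthest right or next to it in all 4 panels, at 2.87, 1.77, 2.31 and 2.86, and the third value did not pass.

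**Figure D4:**
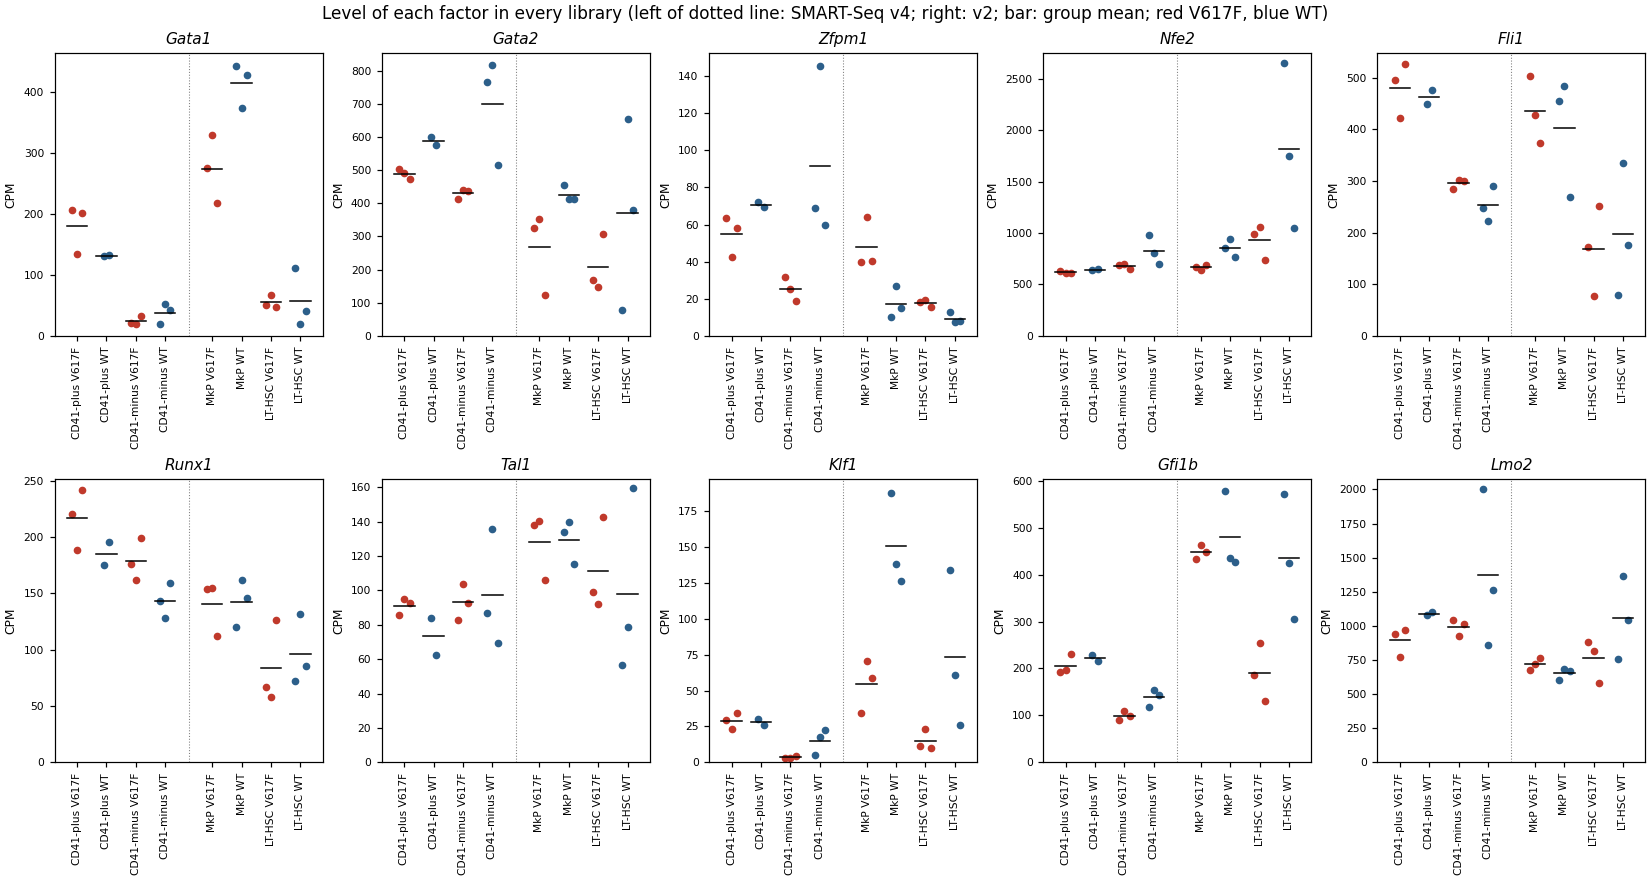
CPM of each factor in every library, with the group mean as a bar. Panels share no scale; v4 libraries stand left of the dotted line and v2 libraries right of it, and levels are not comparable across it. Gata1 separates the CD41 fractions in either genotype, and Zfpm1 and Klf1 are lowest in V617F among the CD41-minus libraries.

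The balance of the GATA factors was read as the ratio of Gata1 to Gata2 per length in each library, as a description. In CD41-plus HSC the ratio was 0.695, 0.466 and 0.726 in V617F and 0.371 and 0.392 in WT. In CD41-minus HSC it was 0.0895, 0.0771 and 0.127 in V617F and 0.0444, 0.108 and 0.143 in WT. Gata2 thus exceeded Gata1 in every library of the CD41 fractions, by the smallest margin in V617F CD41-plus HSC. In MkP the ratio was 1.43, 1.59 and 3.0 in V617F and 1.66, 1.54 and 1.77 in WT, so that Gata1 exceeded Gata2 in all 6. In LT-HSC it was 0.503, 0.79 and 0.266 in V617F and 2.42, 0.05 and 0.182 in WT, and WT 30 was the one LT-HSC library above 1.

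**Figure D5:**
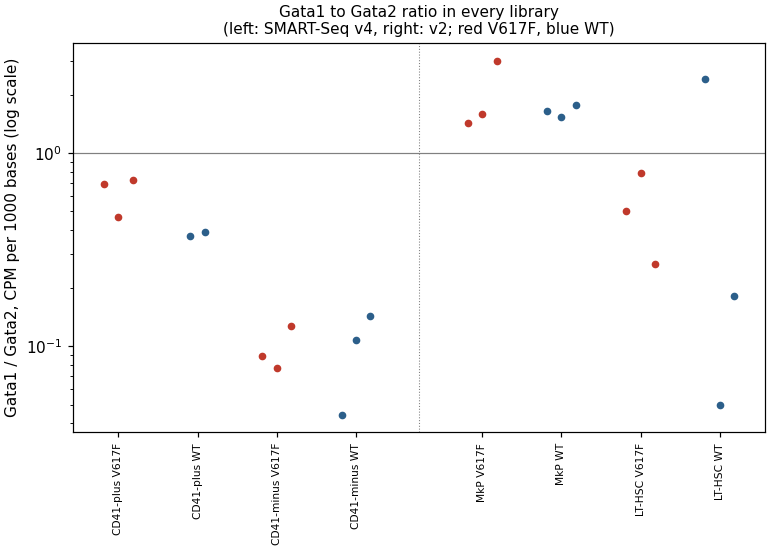
Ratio of Gata1 to Gata2 (per length, log scale) in every library; the line marks equal levels. All 6 MkP libraries lie above the line and all 11 libraries of the CD41 fractions below it, with 1 WT LT-HSC library, number 30, above it.

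The sequences ahead of 4 of the genes are shown because Gata1, Klf1, Gfi1b and Zfpm1 carry most of the differences above. The RefSeq promoter table used here (GRCm38.p6) matched 7 of the 10, and the 250 bases before a listed start are printed in the direction of the gene. For Gata1 and Zfpm1 the listed start lies inside the gene span given above. The bases before the outer end of these genes were not read. Capitals mark the GATA words AGATAA or TGATAA and the KLF word CCNCNCCC on either strand, which do not overlap each other here. They are chrX:7967911-7968160 on the minus strand for Gata1, chr8:84901732-84901981 on the plus strand for Klf1, chr2:28621983-28622232 on the minus strand for Gfi1b and chr8:122281891-122282140 on the plus strand for Zfpm1.
Gata1: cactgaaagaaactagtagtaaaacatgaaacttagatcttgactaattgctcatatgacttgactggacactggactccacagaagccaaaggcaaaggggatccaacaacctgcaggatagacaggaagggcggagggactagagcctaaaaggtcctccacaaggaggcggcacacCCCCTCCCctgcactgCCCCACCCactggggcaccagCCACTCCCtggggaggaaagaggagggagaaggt
Klf1: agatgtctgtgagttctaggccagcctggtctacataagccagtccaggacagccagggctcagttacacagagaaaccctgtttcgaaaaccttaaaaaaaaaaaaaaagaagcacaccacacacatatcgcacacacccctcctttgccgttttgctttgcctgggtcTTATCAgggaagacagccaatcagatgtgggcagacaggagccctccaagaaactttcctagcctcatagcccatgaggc
Gfi1b: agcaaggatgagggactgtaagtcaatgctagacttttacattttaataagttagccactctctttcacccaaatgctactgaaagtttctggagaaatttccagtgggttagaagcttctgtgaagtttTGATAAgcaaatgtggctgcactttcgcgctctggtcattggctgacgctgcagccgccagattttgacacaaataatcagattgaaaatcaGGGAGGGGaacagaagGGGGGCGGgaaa
Zfpm1: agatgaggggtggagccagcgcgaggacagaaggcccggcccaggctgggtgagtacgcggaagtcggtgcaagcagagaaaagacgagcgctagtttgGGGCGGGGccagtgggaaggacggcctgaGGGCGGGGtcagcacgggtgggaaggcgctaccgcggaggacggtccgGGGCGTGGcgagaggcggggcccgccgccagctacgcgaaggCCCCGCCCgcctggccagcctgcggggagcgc
Klf1 holds 1 GATA word, at -80 to -75 on the opposite strand, and no KLF word. Gfi1b holds 1 GATA word, at -120 to -115, and 2 KLF words. Gata1 holds 3 KLF words and Zfpm1 4, and neither holds a GATA word in this window. Over 32851 promoters of the same length 16.6% hold a GATA word and 45.9% a KLF word. Of the other three genes in the table, Tal1 holds 1 GATA word at the first of its 2 starts, and Gata2 and Runx1 hold none at either start.

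The factors' partners and relatives were read from a list of 42 tested genes. In V617F CD41-minus HSC 3 were higher and 10 lower than in WT, beside 5.48% and 7.94% of all genes, with a median log2 fold change of -0.16 beside -0.01 over all genes. The 3 with the smallest adjusted p were all lower in V617F. Runx1t1, a corepressor related to Cbfa2t3, had 3.81 ± 0.91 CPM in V617F and 15.4 ± 1.16 CPM in WT (adjusted p = 0.00173). Lyl1, a close relative of Tal1, had 28.5, 23.3 and 23.4 CPM in V617F and 145.4, 208.1 and 31.6 CPM in WT (adjusted p = 0.0132), so that its difference lay in WT 1 and WT 3. Cbfa2t3, a corepressor in the TAL1 complex, had 166.5 ± 10.2 CPM in V617F and 278.4 ± 73.8 CPM in WT (adjusted p = 0.0207). Ldb1, which joins LMO2 in that complex, was lower, at 173.9 ± 5.83 CPM in V617F and 240.4 ± 46.2 CPM in WT (adjusted p = 0.0381). Cbfb, the partner of RUNX1, was higher, at 290.8 ± 15.5 CPM in V617F and 195.1 ± 51.1 CPM in WT (adjusted p = 0.0431). Ldb1 and Cbfb were chosen after their values were seen.

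From CD41-minus to CD41-plus HSC 7 of the 42 rose and 9 fell in V617F, a share near that of all genes (16.4% higher and 17.9% lower). In WT 8 rose and 13 fell, beside 15.7% higher and 18.2% lower over all genes. Mef2c, a megakaryocyte and lymphoid regulator, had 649 ± 94.0 CPM in CD41-plus and 250 ± 13.1 CPM in CD41-minus HSC of V617F (adjusted p = 3.71e-05). Gfi1, the relative of Gfi1b, ran opposite to it, at 1.25 ± 0.72 CPM in CD41-plus and 31.1 ± 11.01 CPM in CD41-minus HSC of V617F, and at 1.92 ± 1.499 CPM in CD41-plus and 26.2 ± 8.22 CPM in CD41-minus HSC of WT (adjusted p = 3.97e-05 in V617F and 6.28e-04 in WT). Spi1, the myeloid ETS factor that GATA1 antagonises, had 45.7 ± 0.30 CPM in CD41-plus and 103.7 ± 25.7 CPM in CD41-minus HSC of WT (adjusted p = 8.57e-04). Between MkP and LT-HSC Gata3, a lymphoid GATA factor, was lower in MkP of either genotype, at 16.4 ± 2.58 CPM in MkP and 78.6 ± 9.52 CPM in LT-HSC of V617F and at 18.8 ± 3.67 CPM in MkP and 112.2 ± 4.28 CPM in LT-HSC of WT (adjusted p = 0.00607 in V617F and 9.06e-04 in WT).

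Genes of the megakaryocyte and red cell lines that these factors are known to regulate were counted next. In V617F CD41-minus HSC 1 of 32 tested megakaryocyte genes was higher and 12 were lower than in WT (median log2 -0.61), beside 5.48% higher and 7.94% lower over all genes. F2r, the thrombin receptor, was the one that rose, at 368 ± 12.9 CPM in V617F and 153 ± 26.4 CPM in WT (adjusted p = 0.00112). Of 33 tested red cell genes, near-identical globin copies being counted once, none was higher and 19 were lower (median log2 -1.17). Calls of the factors in this contrast depended on single libraries, and neither of these lists was read under the alternative fits. Car1, a carbonic anhydrase, had 1.55 ± 0.53 CPM in V617F and 66.5 ± 42.9 CPM in WT, and Ermap, a red cell membrane protein, 0.431 ± 0.21 CPM in V617F and 16.4 ± 10.8 CPM in WT (adjusted p = 6.35e-04 and 0.00112). In that fraction the red cell genes summed to 2328, 2156 and 2217 CPM in V617F, against 4331, 2307 and 2977 CPM in WT. Of them Car2 alone had 2505 ± 1125 CPM in WT, so that the WT sums were largely that 1 gene. In CD41-plus HSC none of the red cell genes was higher in V617F and 6 of 33 were lower, beside 0.94% of all genes. In MkP 3 of 31 were lower, beside 0.126%, and in LT-HSC 1 of 31, beside 0.035%, with none higher in either. None of the megakaryocyte genes passed in CD41-plus HSC, MkP or LT-HSC in edgeR's test. An unadjusted p under 0.05 was seen for 9 in CD41-plus HSC, 4 in MkP and 6 in LT-HSC. The share of all genes at that unadjusted threshold was not counted.

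From CD41-minus to CD41-plus HSC 23 of the 32 megakaryocyte genes rose and 2 fell in each genotype, with a median log2 fold change of 1.53 in V617F and 1.37 in WT, beside 16.4% of all genes higher and 17.9% lower in V617F and 15.7% and 18.2% in WT. Pf4, a platelet chemokine, had 483 ± 256 CPM in CD41-plus and 10.3 ± 2.19 CPM in CD41-minus HSC of V617F (adjusted p = 6.37e-06). Of the 33 red cell genes 13 rose and 3 fell in V617F. In WT 7 rose and 7 fell, near the share of all genes. Epor, the erythropoietin receptor, had 46.2 ± 8.15 CPM in CD41-plus and 9.27 ± 1.97 CPM in CD41-minus HSC of V617F (adjusted p = 6.55e-05). Icam4, a red cell adhesion protein, had 40.2 ± 1.58 CPM in CD41-plus and 15.1 ± 0.999 CPM in CD41-minus HSC of WT (adjusted p = 1.94e-04). From LT-HSC to MkP 12 megakaryocyte genes rose and none fell in V617F, beside 0.378% and 0.714% of all genes, and 15 rose and 3 fell in WT, beside 2.32% and 6.58%. The CD41 gate selects on 1 of these megakaryocyte genes, Itga2b.

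The genes whose levels ran closest to each factor were ranked by the smaller of the Pearson correlations over the 11 v4 libraries and over the 12 v2 libraries, among 13908 genes. The libraries share groups and protocol, so the values describe a pattern only. Closest to Gata1 were Tuba8, a tubulin (0.96), Slc14a1, a urea transporter (0.95), and Treml1, a platelet receptor (0.93). Klf1 and Gfi1b had each other among their closest 3 (0.90), and Klf1 also had Epor (0.87). Fli1 had Atad5 (0.94) and Dtl (0.93), both of DNA replication and repair, and Runx1 had Naa50 (0.92) and Hells (0.90). Gata2 had Arhgef2 (0.93), Atp2a3 and Itga5. The closest gene was less close for Zfpm1 (Foxk2, 0.85), Lmo2 (Itgb2l, 0.80) and Tal1 (Rsc1a1, 0.79), and Nfe2 had the glycolytic gene Aldoa (0.93) beside class I genes whose reads near-identical copies may share.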

How the data were processed

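RNA of sorted cells was made into cDNA with SMART-Seq v2 or v4 and into libraries with Nextera XT, per the labels' protocols. STAR 2.5.2a, R 3.4.2, limma and the build mm10 are named in the submitters' processing notes; for the counting tool, its strand setting and its annotation, nothing is given in these sources. The authors deposited 1 table of whole-number counts per gene, which also lists a length for each gene. From these counts, each protocol was fitted apart in R 4.3.3 with edgeR 4.0.16 (filterByExpr, TMM scaling, 1 mean per group, quasi-likelihood F test, Benjamini-Hochberg adjustment over all genes of a contrast, threshold 0.05). That left 14467 genes with v4 and 14281 with v2. Standard errors were derived from the F statistic. Replicate levels are mean ± SD.

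The 10 genes and all gene lists were chosen with earlier results of these data known, and their counts are descriptions. All 10 genes were read in every contrast; of other lists, at most the 3 genes with the smallest adjusted p were named unless said otherwise. One listed gene is not reported here. The steps were checked on simulated counts. Alternatives were DESeq2 1.42.0, limma-voom (limma 3.58.1), RLE size factors, no filter, at least 5 CPM in 3 libraries, only the groups compared, each library left out in turn, both libraries of the mouse labelled male left out, and the replicate number as a block. Where no count of all genes stands beside an alternative fit, its count of the 10 has no background. Equal numbers pair the V617F libraries of the CD41 fractions: their deviations from group means correlated at 0.377, 0.504 and 0.369, and those of unequal numbers at most at 0.012.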

Additional observations from a re-analysis of the deposited data

Results flagged for a closer look

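Zfpm1 and Gata1 are listed here because their V617F effects had opposite signs in v4 and v2 populations without overlap of the groups. Both features were thus the rule of choice, and how often all genes meet it was not counted. The V617F effect on Zfpm1 pointed in opposite directions with the protocols. It was -1.85 on the log2 scale in CD41-minus HSC and -0.37 in CD41-plus HSC, where every V617F library lay below every WT library. It was 0.91 in LT-HSC and 1.47 in MkP, where every V617F library lay above every WT library. Of these values the first alone passed an adjusted p of 0.05. For Gata1 the effect was 0.46 in CD41-plus HSC, all V617F libraries higher, and -0.60 in MkP, all V617F libraries lower; it did not split by protocol, with -0.63 in CD41-minus HSC and -0.04 in LT-HSC, where the groups overlapped. Neither the difference for Zfpm1 between v4 and v2 populations nor that for Gata1 between CD41-plus HSC and MkP was tested, because protocol and population cannot be told apart.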

How the results depend on the processing

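Of the single-gene values under the alternatives, 1768 kept their side of the threshold, 40 passed newly, 22 no longer passed, and none that passed in either fit changed sign. In V617F over WT in CD41-minus HSC the count of 4 ran from 1 to 6 when 1 library was left out, and was 1 with only the groups compared and 1 without both libraries of the mouse labelled male. The count over all genes there was 1941, 269 with only the groups compared, 3380 with DESeq2 and 6021 without WT 4. With DESeq2 the counts were 2 in V617F over WT in LT-HSC and 1 in MkP (0 in edgeR's test), 5 for CD41-plus over CD41-minus HSC in WT (3), and 2 in V617F and 3 in WT for MkP over LT-HSC (0 and 1). For these counts and those below, the share of all genes that passed in the same fit is not given here. For MkP over LT-HSC in V617F the count was 1 with limma-voom, with no filter and with the filter of 5 CPM, and 5 with only the groups compared; in WT it was 0 with only the groups compared, and in V617F over WT in MkP it was 1. Leaving out 1 library gave 3 to 8 for CD41-plus over CD41-minus HSC in WT, 0 to 2 and 1 to 3 for MkP over LT-HSC in V617F and in WT, and 0 to 2 for the difference of V617F effects between the CD41 fractions, where 2 came from leaving out CD41-minus WT 4. The cause was not tested. Where an arm was left with 1 library, it was taken to vary like the other groups.

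With the replicate number as a block, 6 of the 10 passed for CD41-plus over CD41-minus HSC in V617F, 4 in WT, 2 for MkP over LT-HSC in WT (Nfe2 added, adjusted p = 0.0414), 3 in V617F over WT in CD41-minus HSC and 0 for the difference between the CD41 fractions. WT libraries of equal number correlated at 0.065 and 0.018 between the CD41 fractions and at -0.036, -0.005 and 0.019 between MkP and LT-HSC, so that no pairing was seen. With 2 or 3 libraries a group, deviations from the group mean can barely test it, and pairing was not excluded. A block for V617F over WT in CD41-plus HSC was not run, since the groups share too few numbers. In CD41-minus HSC, Klf1 rests on 73 to 133 counts per library in V617F. Globin copies were counted once as a choice made after seeing the data; with each copy counted, 20 of 36 red cell genes were lower in V617F CD41-minus HSC, and 5 of 36 fell in V617F from CD41-minus to CD41-plus HSC.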
